A study of Mus musculus with 23 samples.

Results

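The D-type cyclins, their kinase partners CDK4 and CDK6, and the CDK inhibitors of the CIP/KIP and INK4 families were followed across 23 RNA sequencing libraries of a mouse myeloma model. The set holds 10 genes, CCND1, CCND2, CCND3, CDK4, CDK6, CDKN1A, CDKN1B, CDKN2B, CDKN2C and CDKN2D. They were taken by name from the deposited table, where each stands once, out of 15881 gene profiles with a value above 0. The table gives mouse genes under human symbols. CDKN2A was not analysed here.

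D-type cyclins are the growth-signal sensors of the G1 phase: they bind CDK4 or CDK6, and the active kinase phosphorylates the retinoblastoma protein, which releases E2F factors to transcribe S phase genes. INK4 inhibitors (p15, p18 and p19, encoded by CDKN2B, CDKN2C and CDKN2D) bind CDK4 and CDK6 themselves, whereas CIP/KIP inhibitors (p21 and p27, encoded by CDKN1A and CDKN1B) bind cyclin-CDK complexes more broadly. In multiple myeloma, deregulated expression of a D-type cyclin is a recurrent feature of the malignant plasma cells, and p18 restrains the cell cycle of normal plasma cells.

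The tumor libraries came from 8 IL6Myc transgenic mice, 7 from mesenteric lymph node (MLN) tumors and 7 from spleen tumors, labelled as malignant plasma cells and untreated. Of these mice, 6 gave both tumors, mouse 1609 an MLN tumor and mouse 1612 a spleen tumor. The controls were splenic B cells of wild-type (WT) Balb/c mice: 4 quiescent libraries, untreated, and 5 activated libraries, stimulated in culture with lipopolysaccharide (LPS, a bacterial B cell mitogen) at 1 ug/ml for 16 hours. In all 4 groups magnetic beads removed cells of other lineages before RNA extraction, so the selection was for B cells and by exclusion. The sources used here do not give the promoters of the transgenes, the strain of the tumor mice or any age. The labels do not say that control libraries came from separate animals, so the spread among them may be technical. Tumors were compared with controls over mice, with the counts of a mouse's tumors summed.

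Library totals ranged from 13328866 to 25045814 estimated counts. Of 16 plasma cell markers, 11 were higher and 0 lower in tumors than in quiescent cells, and of 16 B cell markers, 0 were higher and 16 lower. In the same comparison 36.8% of all genes tested were higher and 31.9% lower, which holds beside the marker counts below as well. Immunoglobulin genes took 2.012% of the counts in the MLN tumor of mouse 1611, 1.126% in the spleen tumor of mouse 1610, 1.654% in that of mouse 1612 and 1.026% in that of mouse 1615, which lies under the 2.233% of the lowest quiescent library. Other cell types were also present: of 12 macrophage markers, 12 were higher and 0 lower in tumors than in quiescent cells, and their summed level ranged from 192 to 2526 CPM (counts scaled to a common library size) in tumor libraries, from 15.8 to 140 CPM in quiescent and from 9.06 to 20.8 CPM in activated cells. Neutrophil markers (8 higher of 8), erythroid (8 of 8), stromal (11 of 12), T cell (8 of 12, with 1 lower), endothelial (4 of 5) and megakaryocyte markers (4 of 4) also passed the test against quiescent cells. By summed level the T cell markers went the other way, with medians of 172 CPM at both tumor sites and 288 CPM in quiescent cells. Their sums ranged from 37.8 to 655 CPM in MLN tumors, 37.3 to 286 CPM in spleen tumors and 272 to 289 CPM in quiescent cells. In activated cells THEMIS, ELANE, KEL, COL1A2, PDGFRA, COL6A1, KDR, TEK, EMCN, GP9, PPBP and GP1BA were among the markers at 0, as were LUM and EMCN in quiescent cells. The part of these markers in the results on tumors was not tested. Y-linked genes summed to between 354 and 369 CPM in quiescent libraries and to under 1 CPM in activated ones, so within the controls activation and Y-linked expression cannot be told apart. Tumor mice ranged from 4.36 to 266 CPM for the same genes, with mice 1612, 1613 and 1614 under 50 CPM.

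Against quiescent B cells, CCND2, CDK4, CDKN1A, CDKN2B and CDKN2C rose in tumors and CDKN1B fell. Those 6 of 10 members passed the threshold (adjusted p under 0.05 over 11637 genes), in a comparison where 68.8% of all genes tested passed, 36.8% as higher and 31.9% as lower. For 7 members the tumor mice and quiescent libraries did not overlap, against 47.5% of all genes tested. The median log2 difference of the members was 1.08, beside 0.07 for all genes tested. The share of members called was close to that of all genes.

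Against activated B cells, CCND1, CDKN1A, CDKN2C and CDKN2D rose in tumors and CDK4 and CDK6 fell, again 6 of 10, where 63.2% of all genes tested passed (36.2% higher, 27.0% lower). For 3 members the groups did not overlap, against 39.9% of all genes. The members' median was 0.40, beside 0.09 for all genes tested. Activation itself raised CCND2, CDK4, CDKN1A and CDKN2B and lowered CCND1, CDKN1B and CDKN2D, 7 of 10 members, where 59.5% of all genes passed (25.4% higher, 34.1% lower). For 8 members activated and quiescent libraries did not overlap, against 68.0% of all genes, and the members' median was 0.33 beside -0.15. These comparisons share their samples in pairs, so the values of each are set side by side and were not counted as independent.

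**Figure D1:**
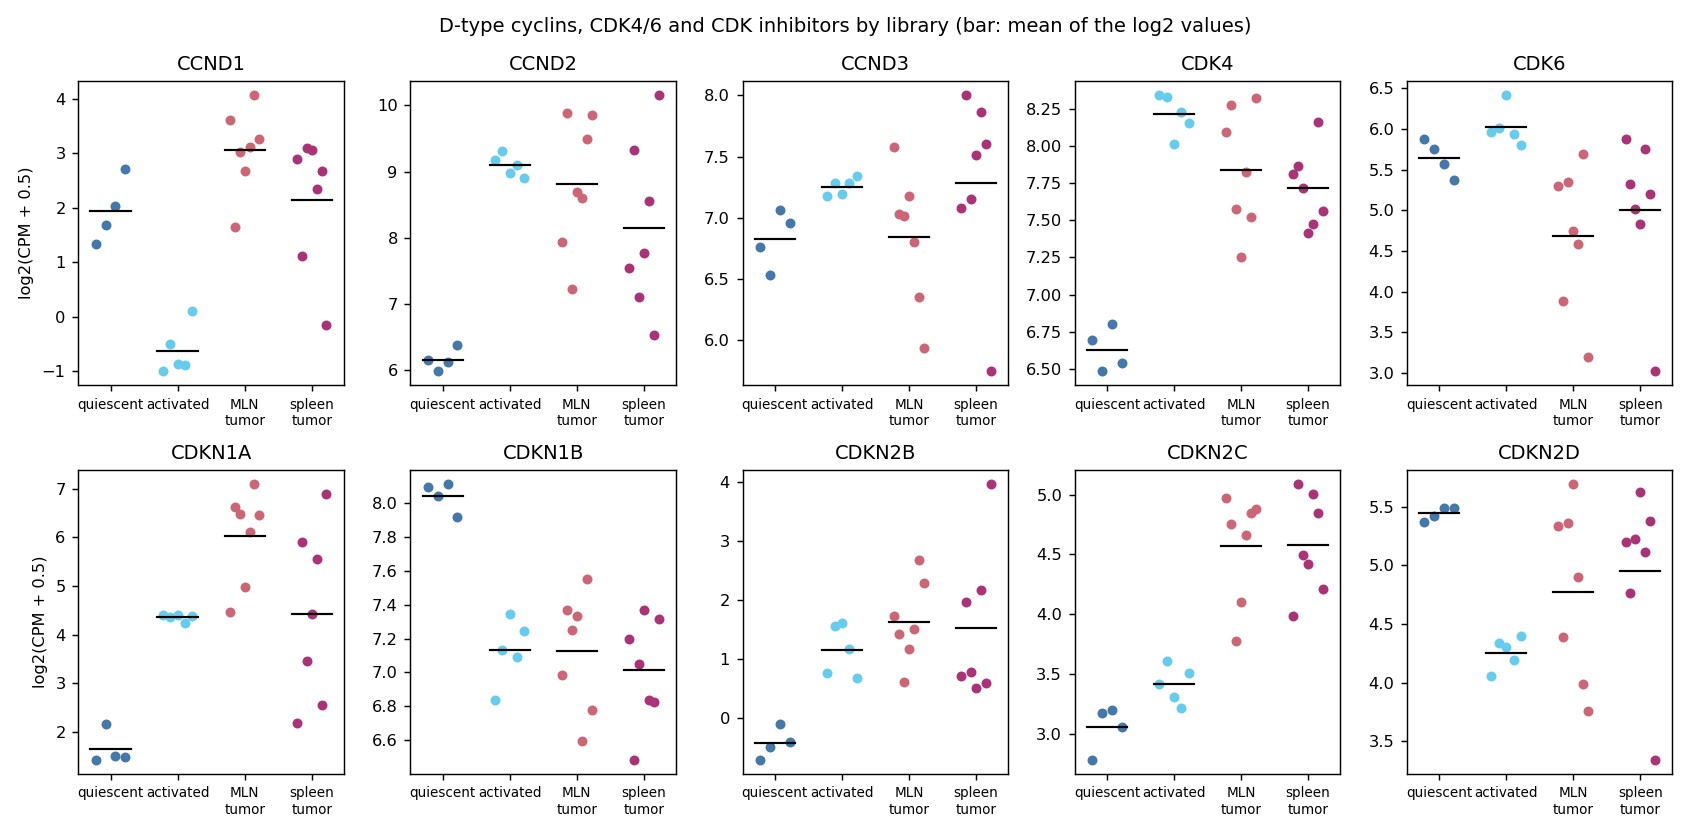
Level of each of the 10 genes in each of the 23 libraries, as log2(CPM + 0.5), in quiescent B cells, activated B cells, MLN tumors and spleen tumors; points are libraries and bars are means of the log2 values. Tumor libraries spread far more than control libraries for CCND2, CDKN1A and CDK6, and the quiescent libraries lie above every other library for CDKN1B. By mean CCND1 is lowest in activated cells. For this gene the spleen tumor of mouse 1616 (0.401 CPM) lies below activated library 5 (0.575 CPM).

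CCND2, cyclin D2, the D cyclin that mature B cells induce on stimulation, stood at 71, 63, 69.3 and 82.7 CPM in quiescent libraries 1 to 4. Activated libraries 1 to 5 held 579, 633, 505, 550 and 481 CPM. MLN tumors ranged from 149 CPM (mouse 1611) over a median of 412 to 945 CPM (mouse 1610), and spleen tumors from 92.7 CPM (mouse 1615) over a median of 218 to 1144 CPM (mouse 1616). Each tumor library lay above each quiescent library, and tumors spanned a range that reached below and above the activated cells. Tumor mice averaged 423 ± 279 CPM of CCND2 (SD, n = 8), beside 74.3 ± 8.61 CPM (SD, n = 4) in quiescent cells, a log2 difference of 2.51 ± 0.40 (SE; adjusted p = 5.66e-05). It was higher in 8 of 8 mice. Activation raised CCND2 by 2.88 ± 0.42 (adjusted p = 2.08e-05). Against activated cells, at 546 ± 57.9 CPM (SD, n = 5), the difference of -0.37 ± 0.32 did not pass (adjusted p = 0.325). Mouse 1616 carried the highest level of the tumor mice, at 1066 CPM, and without this mouse tumors lay below activated cells by a log2 difference of -0.82 (adjusted p = 0.00194). In the 3 tumor mice with Y-linked genes under 50 CPM, like the activated cells, the difference was -1.06 (adjusted p = 0.00175). In a bulk sample, fewer cells of a type and less RNA per cell cannot be told apart.

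CCND3, cyclin D3, which carries germinal center and precursor B cell proliferation, passed the test in none of these comparisons. Quiescent libraries held 108, 92.2, 133 and 124 CPM, and activated libraries 144, 155, 146, 155 and 162 CPM. Over MLN tumors the lowest, median and highest values were 60.9, 129 and 190 CPM, and over spleen tumors 53.3, 182 and 256 CPM. The lowest tumor values at both sites were those of mouse 1616. The log2 difference of tumors was 0.35 ± 0.21 from quiescent (adjusted p = 0.154) and 0.00 ± 0.20 from activated cells (adjusted p = 0.998). Activated libraries all lay above the quiescent ones, but the 0.35 ± 0.23 between them did not pass (adjusted p = 0.207). With only these 2 groups in the fit it passed, at 0.45 (adjusted p = 0.000385). That fit called 8741 of 11637 genes. Without mouse 1616 the difference of tumors from quiescent cells passed, at 0.47 (adjusted p = 0.00129).

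CCND1, cyclin D1, which normal lymphocytes hardly express and which is switched on by translocation in a class of human myelomas, was low throughout. The 4 quiescent libraries held 2.02, 2.72, 3.58 and 6.04 CPM, and activated libraries 0, 0.208, 0.048, 0.0413 and 0.575 CPM. MLN tumors ranged from 2.64 CPM over a median of 8.11 to 16.3 CPM, and spleen tumors from 0.401 over 5.89 to 8.1 CPM. Tumor mice, at 7.47 ± 2.57 CPM (SD, n = 8), did not overlap the activated cells, which held 19 counts in all, 12 of them in library 5. The log2 difference from activated cells was 5.43 ± 0.68 (adjusted p = 4.84e-06), higher in 8 of 8 mice, and 6.58 without activated library 5. The log2 difference of activated from quiescent cells was -4.43 ± 0.69 (adjusted p = 4.16e-05), and -5.57 without library 5. The 1.00 ± 0.56 between tumors and quiescent cells did not pass (adjusted p = 0.119), with 4 of 8 mice above every quiescent library. DESeq2 called this difference, at 1.07 (adjusted p = 0.0257), and alternatives together gave adjusted p from 0.00558 to 0.812.

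Macrophage markers had the same order as CCND1 among the quiescent libraries. In libraries 1 to 4 their sum was 15.8, 46.7, 67 and 140 CPM. The stromal markers, at 16.5, 79.5, 51.5 and 102 CPM, did not keep that order in libraries 2 and 3. In activated cells macrophage markers were between 9.06 and 20.8 CPM, with the highest sum in library 1, where CCND1 was at 0. The 2 genes most alike to CCND1 over the 23 libraries were CLEC9A and SLAMF8 (r = 0.929 for each), the first a marker of dendritic cells and the second a surface receptor of myeloid cells. The part of these cells in the CCND1 values was not tested. In the spleen tumor of mouse 1616 macrophage markers summed to 2124 CPM while CCND1 stood at 0.401 CPM, the lowest of the tumor libraries.

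To compare the D cyclins with each other, CPM was divided by the length of the longest coding transcript, which is 3740 bases for CCND1, 6330 for CCND2 and 2113 for CCND3. On this scale CCND3 made up a median of 80.8% of the 3 D cyclins in quiescent cells (79.9% to 84.1%) and CCND2 17.8%. In activated cells CCND2 held a median of 54.3% (49.7% to 57.7%). MLN tumors ranged from 27.1% to 82.4% CCND2 with a median of 52.8%, and spleen tumors from 13.5% to 87.7% with a median of 30.8%. CCND1 was at most 2.78% in any library. Tumor libraries thus ran from a composition like that of quiescent cells, in the spleen of mouse 1615, to one dominated by CCND2, in both tumors of mouse 1616. Divided by coding length in place of transcript length, the CCND2 medians were 39.4% in quiescent, 78.2% in activated cells, 76.7% in MLN and 56.9% in spleen tumors, so in spleen tumors the length chosen sets which of CCND2 and CCND3 is the larger. In quiescent cells CCND3 was the larger, and in activated cells CCND2, by median with both lengths.

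**Figure D2:**
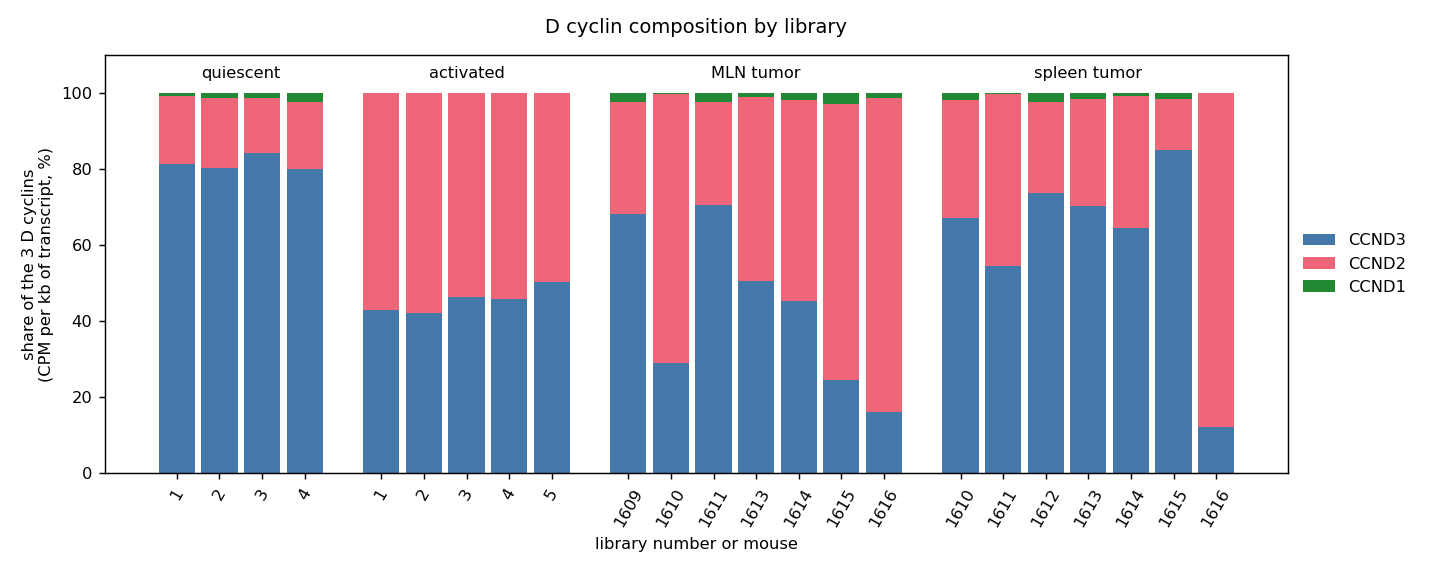
Share of CCND1, CCND2 and CCND3 in the sum of the 3 D cyclins, in percent of CPM per kb of the longest coding transcript, 1 bar per library. CCND3 fills about 80% of each quiescent bar, CCND2 and CCND3 are near parity in activated cells, and tumors range from 13.5% to 87.7% CCND2.

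CDK4, a kinase partner of the D cyclins, rose both on activation and in tumors. Quiescent libraries held 103, 89.1, 111 and 92.6 CPM and activated libraries 324, 321, 258, 299 and 284 CPM. The lowest, median and highest values were 152, 226 and 319 CPM in MLN tumors and 170, 210 and 286 CPM in spleen tumors. No tumor library reached down to the quiescent cells, and tumor mice overlapped the activated cells from below. The log2 difference of tumor mice (230 ± 39.9 CPM, SD, n = 8) from quiescent cells (103 ± 10 CPM, SD, n = 4) was 1.16 ± 0.13 (adjusted p = 2.49e-06), higher in 8 of 8 mice. Activation raised CDK4 by 1.52 ± 0.14 (adjusted p = 1.72e-07). From activated cells it was -0.36 ± 0.11 (adjusted p = 0.0113), with 6 of 8 mice below every activated library. This second difference did not pass with MLN tumors alone (-0.33, adjusted p = 0.0913), without the 4 tumor libraries of low immunoglobulin share (-0.34, adjusted p = 0.0623) or with quantile normalization (-0.22, adjusted p = 0.111).

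The window of 250 bases before the Cdk4 start site is shown because MYC, the transgene of the model, binds the E-box CACGTG, and this window holds 4 of them. CACGTG reads the same on both strands. Among 32851 RefSeq promoter windows of the same length, 6.02% held at least 1 match and 7 windows (0.0213%) held 4 or more. RefSeq windows were found for 8 of the 10 genes; Cdk6 held 1 match and the other 6 genes none. The Cdk4 window is chr10:127063285-127063534 on the plus strand of GRCm38.p6, and capitals mark CACGTG, whose first bases lie at -172, -118, -98 and -11 from the start site. Matches are letters in a window, and binding was not measured.
Cdk4 promoter: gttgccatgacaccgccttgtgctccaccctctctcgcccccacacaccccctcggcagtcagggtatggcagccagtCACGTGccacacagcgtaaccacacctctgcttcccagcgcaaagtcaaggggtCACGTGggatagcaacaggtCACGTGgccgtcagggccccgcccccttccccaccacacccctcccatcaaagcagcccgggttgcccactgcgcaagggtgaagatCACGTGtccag

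MYC itself stood at 795 ± 435 CPM (SD, n = 8) in tumor mice, 220 ± 7.14 CPM (SD, n = 5) in activated and 72.6 ± 6.79 CPM (SD, n = 4) in quiescent cells. Its log2 difference in tumors was 3.45 ± 0.34 from quiescent (adjusted p = 8.67e-07) and 1.85 ± 0.29 from activated cells (adjusted p = 3.75e-05). By mean, MYC was highest in tumors and CDK4 in activated cells. Whether MYC acts on CDK4 in these samples was not tested.

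CDK6, the other D cyclin kinase of the set, fell in tumors against activated cells, as CDK4 did. Quiescent libraries held 58.5, 53.4, 47.1 and 41 CPM, and activated libraries 61.7, 63.8, 85.1, 60.8 and 55.4 CPM. Over MLN tumors the lowest, median and highest values were 8.7, 26.3 and 51.1 CPM, and over spleen tumors 7.63, 36.3 and 58.1 CPM. The lowest values at both sites were again those of mouse 1616. Tumor mice (34.3 ± 11.6 CPM, SD, n = 8) showed a log2 difference of -0.92 ± 0.26 from activated cells (adjusted p = 0.00548), lower in 8 of 8 mice. With the Y-linked level as a covariate this did not pass (-1.02, adjusted p = 0.0988). They also lay below every quiescent library in 8 of 8 mice, but the difference of -0.60 ± 0.28 did not pass (adjusted p = 0.0659). The highest tumor mouse, at 42.6 CPM, and the lowest quiescent library, at 42.7 CPM, were close to each other. Between activated and quiescent cells the difference of 0.32 ± 0.31 did not pass (adjusted p = 0.391). It passed with only these 2 groups in the fit (0.42, adjusted p = 0.00906). Without mouse 1616 the difference of tumors from quiescent cells passed at -0.45 (adjusted p = 0.00672). Per kb of transcript, CDK4 made up a median of 91.8% of the kinase pair in quiescent cells, 96.6% in activated cells, 97.5% in MLN and 97.1% in spleen tumors; by coding length these medians were 68.1%, 84.4%, 88.3% and 86.7%.

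CDKN1A, p21, a stress-inducible inhibitor of cyclin-CDK complexes, showed the largest rise of the members against quiescent cells. Quiescent libraries held 2.18, 4, 2.34 and 2.3 CPM and activated libraries 20.5, 20, 20.5, 18.3 and 20.4 CPM. MLN tumors ranged from 21.6 CPM over a median of 87.4 to 137 CPM, and spleen tumors from 4.02 over 20.9 to 118 CPM. All MLN tumors lay above all control libraries, while spleen tumors ran from the top of the quiescent range to far above the activated cells. Tumor mice (50.3 ± 31.6 CPM, SD, n = 8) differed from quiescent cells (2.81 ± 0.901 CPM, SD, n = 4) with a log2 difference of 4.15 ± 0.54 (adjusted p = 9.56e-06), or 17.7-fold, higher in 8 of 8 mice. Activation raised CDKN1A by 2.80 ± 0.52 (adjusted p = 0.000226).

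Tumor mice exceeded activated cells (19.8 ± 0.907 CPM, SD, n = 5) by 1.34 ± 0.41 (adjusted p = 0.009), with 7 of 8 mice above every activated library and mouse 1612 below, at 10.8 CPM. This call depended on the samples and on the scaling. It was 1.93 with MLN tumors alone (adjusted p = 0.000353) and did not pass with spleen tumors alone (0.97, adjusted p = 0.244) or with quantile normalization (0.89, adjusted p = 0.0957). With the Y-linked level as a covariate the direction turned (-0.18, adjusted p = 0.83), and in the mice with Y-linked genes under 50 CPM it was 0.53 (adjusted p = 0.206).

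CDKN1B, p27, which holds resting lymphocytes out of the cell cycle, was the member that fell in tumors against quiescent cells. Quiescent libraries held 273, 263, 277 and 241 CPM, and activated libraries 114, 140, 162, 136 and 151 CPM. Over MLN tumors the lowest, median and highest values were 96.3, 152 and 187 CPM, and over spleen tumors 88.9, 132 and 165 CPM. No tumor or activated library reached the quiescent range. The log2 difference from quiescent cells was a fall by 1.00 ± 0.10 in tumors (adjusted p = 8.64e-07; lower in 8 of 8 mice) and -0.97 ± 0.11 in activated cells (adjusted p = 1.7e-06). Between tumors and activated cells it was -0.02 ± 0.10 (adjusted p = 0.834). CDKN1C, p57, the remaining CIP/KIP gene, was between 1.13 and 1.69 CPM on average in the 3 groups and passed in no comparison, with adjusted p of 0.29, 0.644 and 0.19.

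Among genes that act on the stability of p27, D cyclins, cyclin E or MYC, 5 of 15 were higher and 3 lower in tumors than in quiescent cells (median 0.11). Against activated cells 3 were higher and 7 lower (median -0.27). The shares of all genes tested were 36.8% higher and 31.9% lower against quiescent and 36.2% and 27.0% against activated cells. On activation they were 25.4% and 34.1%. CKS1B, the cofactor with which SKP2 recognizes p27, rose by 3.48 ± 0.23 (adjusted p = 2.98e-08) against quiescent cells and SKP2 itself by 1.35 ± 0.20 (adjusted p = 3.72e-05). USP2, a deubiquitinase of cyclin D1, rose by 0.85 ± 0.30 (adjusted p = 0.0187). FBXW7, the receptor subunit for cyclin E and MYC degradation, averaged 50.3 ± 5.58 CPM (SD, n = 8) over tumor mice, beside 139 ± 3.78 CPM (SD, n = 5) in activated cells, a log2 difference of -1.46 ± 0.07 (adjusted p = 1.08e-10). Quiescent cells held 41.4 ± 1.19 CPM (SD, n = 4), and tumors were above them by 0.28 (adjusted p = 0.004). CAND1, which exchanges the substrate receptors of cullin ligases, was also lower than in activated cells (-0.74 ± 0.10) and USP28 higher (0.65 ± 0.12). Activation raised 8 and lowered 3 of the 15, led by CKS1B (3.21 ± 0.23), FBXW7 (1.74 ± 0.09) and USP2 (1.22 ± 0.32).

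The INK4 genes each followed a course of their own. CDKN2C, p18, rose in tumors against both controls. Quiescent libraries held 6.38, 8.53, 8.69 and 7.84 CPM and activated libraries 10.2, 11.7, 9.41, 8.8 and 10.9 CPM. MLN tumors ranged from 13.2 CPM over a median of 26.4 to 30.9 CPM, and spleen tumors from 15.3 over 22.1 to 33.6 CPM. All tumor libraries lay above all control libraries. The log2 difference was 1.60 ± 0.16 from quiescent (adjusted p = 8.3e-07) and 1.29 ± 0.14 from activated cells (adjusted p = 1.49e-06), higher in 8 of 8 mice in both. It was called in 28 of 28 alternatives against quiescent and 29 of 29 against activated cells. The 0.31 ± 0.16 between activated and quiescent cells did not pass (adjusted p = 0.111), but did with only these 2 groups in the fit (0.41, adjusted p = 0.0113).

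CDKN2D, p19, was instead highest in quiescent and lowest in activated cells by mean. Quiescent libraries held 40.8, 42.3, 44.5 and 44.5 CPM and activated libraries 16.1, 19.7, 19.2, 17.8 and 20.6 CPM. Over MLN tumors the lowest, median and highest values were 13, 29.4 and 51.4 CPM, and over spleen tumors 9.63, 36.2 and 48.9 CPM. Tumors spanned both control groups, with mouse 1616 lowest and mouse 1613 highest at both sites. On activation CDKN2D fell by 1.27 ± 0.25 on the log2 scale (adjusted p = 0.000424). Tumor mice (33.6 ± 11 CPM, SD, n = 8) were above activated cells by 0.86 ± 0.22 (adjusted p = 0.00309), with 7 of 8 mice above every activated library. This did not pass without the tumor libraries of low immunoglobulin share (0.60, adjusted p = 0.0666). The difference from quiescent cells, -0.41 ± 0.23, did not pass (adjusted p = 0.117). It passed with the Y-linked covariate (-0.68, adjusted p = 0.0256), in the tumor mice with Y-linked genes at 50 CPM or more, like the quiescent cells (-0.60, adjusted p = 0.0385), and without mouse 1613 (-0.52, adjusted p = 0.0428).

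CDKN2B, p15, had the lowest median level per kb of transcript in each group among the inhibitors of the set, which leaves out CDKN1C. It was 0.164 CPM per kb in quiescent, 1.25 in activated cells, 1.69 in MLN and 0.879 in spleen tumors. Quiescent libraries held 0.109, 0.206, 0.434 and 0.249 CPM, from at most 7.8 counts, and activated libraries 1.2, 2.45, 2.55, 1.74 and 1.1 CPM. MLN tumors ranged from 1.03 CPM over a median of 2.34 to 5.9 CPM, and spleen tumors from 0.913 over 1.22 to 15.3 CPM. All tumor and activated libraries lay above the quiescent ones. Tumor mice (3.13 ± 2.67 CPM, SD, n = 8) differed from quiescent cells (0.259 ± 0.141 CPM, SD, n = 4) with a log2 difference of 3.57 ± 0.64 (adjusted p = 0.000163; higher in 8 of 8 mice), and activated cells with one of 2.77 ± 0.64 (adjusted p = 0.00143). The first did not pass with quantile normalization (0.79, adjusted p = 0.11) and the second with limma at a pseudocount of 5 (0.36, adjusted p = 0.109). The difference of 0.80 ± 0.48 from activated cells did not pass (adjusted p = 0.156), and its direction depended on the setting. With quantile normalization CDKN2B fell by 1.00 in tumors (adjusted p = 0.0364), and without the tumor libraries of low immunoglobulin share it rose by 1.18 (adjusted p = 0.0357). The value was 0.21 without mouse 1616 (adjusted p = 0.603) and -0.52 with the Y-linked covariate (adjusted p = 0.623).

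**Figure D3:**
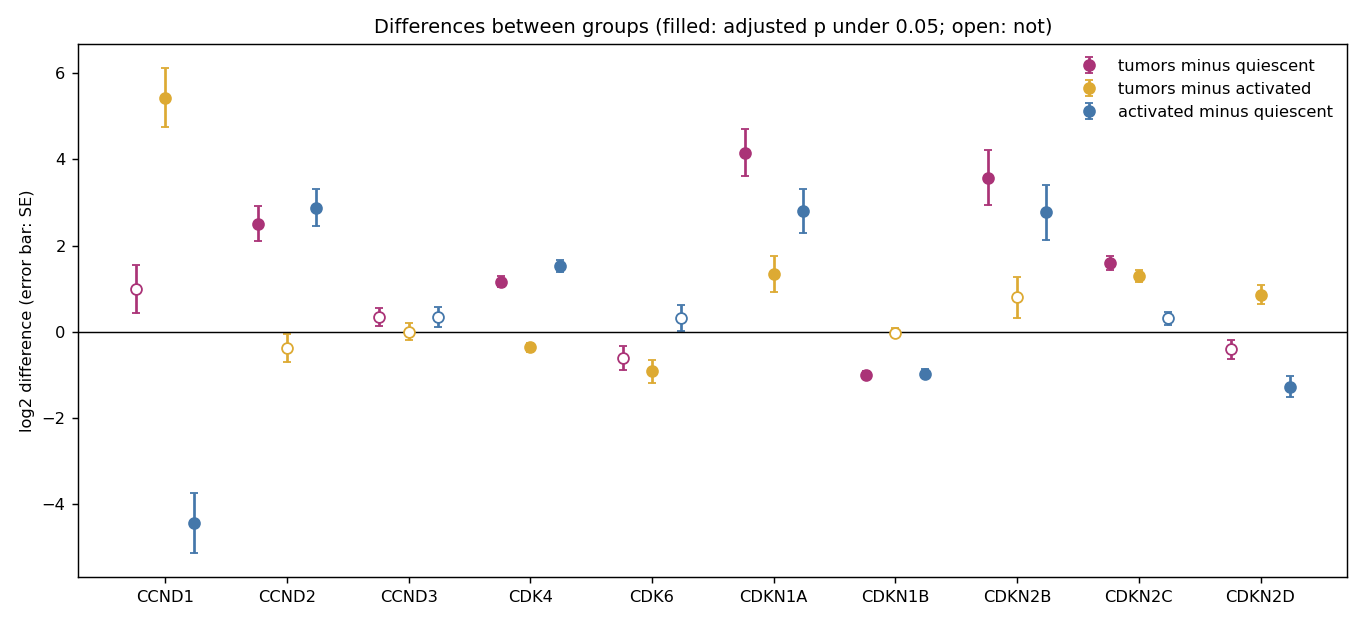
Log2 difference of each gene between groups, with its SE, for tumors minus quiescent, tumors minus activated and activated minus quiescent cells (8 tumor mice, 4 quiescent and 5 activated libraries); filled points passed the adjusted threshold of 0.05. CCND2, CDK4, CDKN1A and CDKN2B lie above 0 in both comparisons with quiescent cells, CDKN1B lies below 0 in both, and CDKN2C lies above 0 in both comparisons of tumors.

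Downstream of the kinases, the RB and E2F genes moved in both directions. Of 13 tested, 6 were higher and 3 lower in tumors than in quiescent cells (median 0.33), and 3 were higher and 6 lower than in activated cells (median -0.17). All genes tested also moved in both directions, 36.8% higher and 31.9% lower against quiescent and 36.2% and 27.0% against activated cells. Their medians were 0.07 and 0.09. On activation 25.4% of all genes rose and 34.1% fell. Tumor mice held 105 ± 17.9 CPM of RB1 (SD, n = 8), beside 169 ± 6.38 CPM (SD, n = 4) in quiescent cells, a log2 difference of -0.68 ± 0.11 (adjusted p = 5.63e-05), and did not differ detectably from activated cells (0.03 ± 0.10, adjusted p = 0.796). E2F8 (4.77 ± 0.42) and E2F7 (2.74 ± 0.57), the atypical repressor E2Fs, and TFDP1, a dimer partner of E2Fs (2.56 ± 0.16), rose most against quiescent cells. Against activated cells E2F2 (1.35 ± 0.15) and TFDP2 (1.24 ± 0.17) were higher and E2F3 lower (-0.78 ± 0.14). Activation raised 8 and lowered 4 of the 13, led by E2F8 (4.08 ± 0.42), TFDP1 (2.88 ± 0.17) and E2F1 (2.35 ± 0.21).

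The list of cyclin E, cyclin A and CDK-activating genes also held the inhibitor CDKN1C and CDKN3, a CDK phosphatase. Of its 9 genes tested, 7 were higher and 0 lower in tumors than in quiescent cells, where 36.8% and 31.9% of all genes were. The largest rises were those of CCNA2 (4.64 ± 0.33), CCNE2 (4.17 ± 0.32) and CDKN3 (3.68 ± 0.49). All-gene shares were 36.2% higher and 27.0% lower against activated cells, and 25.4% and 34.1% on activation. CCNE1, cyclin E1, rose by 2.65 ± 0.23 (adjusted p = 2.82e-07), beside 2.46 ± 0.24 on activation (adjusted p = 3.25e-07). Against activated cells 1 gene was higher, CDKN3 (1.37 ± 0.39), and 3 lower, among them MNAT1 (-0.41 ± 0.12) and CCNH (-0.32 ± 0.12), both subunits of the CDK-activating kinase. Activation raised 8 of the 9 and lowered 0, with CCNA2 (4.30 ± 0.33), CCNE2 (3.97 ± 0.32) and CCNE1 the largest. CDK2 was not analysed here.

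Of 23 S phase genes, 21 were higher and 0 lower in tumors than in quiescent cells (median 1.38), and 0 were higher and 17 lower than in activated cells (median -0.74). Beside them, 36.8% of all genes were higher and 31.9% lower against quiescent, and 36.2% and 27.0% against activated cells. For activation these shares were 25.4% and 34.1%. CDC6, a replication licensing factor (4.79 ± 0.31), RRM2, a ribonucleotide reductase subunit (4.26 ± 0.28), and CLSPN, a checkpoint adaptor (3.58 ± 0.37), rose most against quiescent cells. TYMS, thymidylate synthase (-1.64 ± 0.17), GINS2 of the replicative helicase (-1.28 ± 0.27) and MCM3, a helicase subunit (-1.10 ± 0.19), were lowest against activated cells. Activation raised 22 of the 23, led by CDC6 (4.95 ± 0.32), TYMS (4.49 ± 0.26) and RRM2 (4.45 ± 0.29). MKI67, the Ki-67 antigen of cycling cells, had another order: 552 ± 147 CPM (SD, n = 8) in tumor mice, 327 ± 43.0 CPM (SD, n = 5) in activated and 25.8 ± 1.37 CPM (SD, n = 4) in quiescent cells. Tumors exceeded activated cells by 0.76 ± 0.17 for MKI67 (adjusted p = 0.00123).

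Between MLN and spleen tumors no member passed, and neither did any of the 11637 genes (0% called by edgeR; 511 at an unadjusted p under 0.05, and 20 by DESeq2). The lowest unadjusted p of a member was 0.123, for CCND3, where 4.39% of all genes were under 0.05, and at both sites the libraries overlapped for all 10, beside 0.0258% of genes without overlap. Within the 6 mice with both tumors, CDKN1A was higher in the MLN tumor in 5 of 6. The levels in MLN and spleen were 98.4 and 4.02 CPM in mouse 1610 and 137 and 5.36 CPM in mouse 1615. In mouse 1616 they were 87.4 and 118 CPM. With the mouse as a block the log2 difference was 1.54 ± 0.87 for CDKN1A (unadjusted p = 0.121, adjusted p = 1). CCND3 was lower in the MLN tumor in 5 of 6 mice, by -0.59 ± 0.23 with the block (unadjusted p = 0.0356, adjusted p = 1). CCND2 differed strongly within mice but not in 1 direction: 945 against 186 CPM in mouse 1610, 721 against 92.7 CPM in mouse 1615, and 149 against 641 CPM in mouse 1611.

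**Figure D4:**
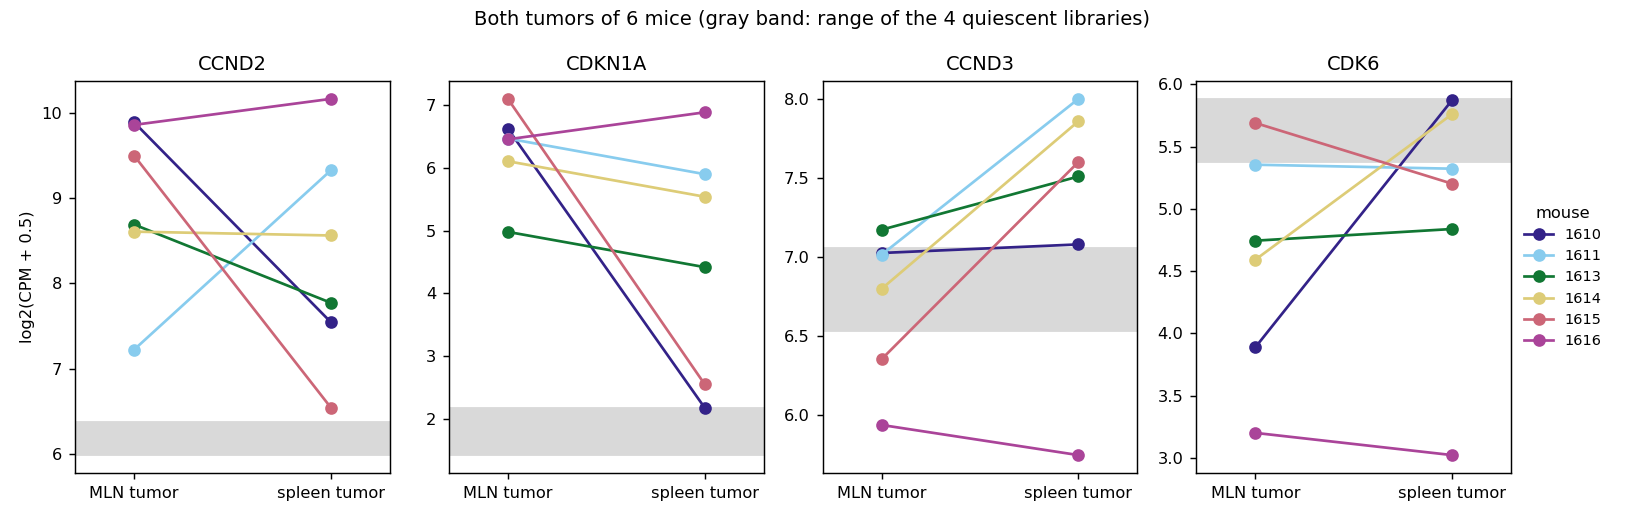
Level of CCND2, CDKN1A, CCND3 and CDK6, as log2(CPM + 0.5), in the MLN and spleen tumors of the 6 mice that gave both; lines join the tumors of a mouse and the gray band is the range of the 4 quiescent libraries. The spleen tumors of mice 1610 and 1615 fall to the quiescent band or just above it for CDKN1A, and the lines for CCND2 cross.

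The tumors with the least CDKN1A also had little immunoglobulin. In the spleen tumors of mice 1610, 1615 and 1612, with immunoglobulin shares of 1.126%, 1.026% and 1.654%, CDKN1A was 4.02, 5.36 and 10.4 CPM and CCND2 186, 92.7 and 137 CPM. In the spleen tumor of mouse 1616 the values were 118 and 1144 CPM. The MLN tumor of mouse 1611, the remaining library of low immunoglobulin share, held 149 CPM of CCND2 but 88.2 CPM of CDKN1A. Without these 4 libraries the log2 difference of CCND2 from quiescent cells was 3.11 (adjusted p = 8.8e-06).

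Over the 8 tumor mice, each member was set against the mean log2 level of the plasma cell list and of the S phase list (20 relations, 2-sided exact permutation tests). CCND2 followed the plasma cell list, with Pearson r = 0.98 (p = 0.000521, adjusted p = 0.0104) and Spearman rho = 0.83 (p = 0.0154, adjusted p = 0.218). Without mice 1616 and 1612, the farthest from the median, r was 0.81. It was 0.97 within the 7 MLN tumors and 0.93 within the 7 spleen tumors. CDK6 followed the S phase list, with r = 0.81 (exact p = 0.00362, adjusted p = 0.0362) and rho = 0.64 (p = 0.0962, adjusted p = 0.321). With any 1 mouse left out r was between 0.80 and 0.88, and without both mouse 1616 and mouse 1613 it was 0.51. It was 0.04 within MLN tumors (adjusted p = 0.968) and 0.78 within spleen tumors (p = 0.0534 and adjusted p = 0.107 by exact permutation), and passed at neither site. CDKN1A had r = 0.75 with the plasma cell list (exact p = 0.03, adjusted p = 0.15) and rho = 0.57 (p = 0.151, adjusted p = 0.427). It was 0.97 within spleen tumors (adjusted p = 0.00794), 0.33 within MLN tumors and 0.13 without mice 1616 and 1612. Within spleen tumors, CCND3 with the S phase list (r = 0.94, adjusted p = 0.0357) and CCND1 with the plasma cell list (r = -0.87, adjusted p = 0.0437) also passed; over the 8 mice these had r = 0.76 (adjusted p = 0.0952) and r = -0.54 (adjusted p = 0.311). Whether the sites differ in any of these relations was not tested.

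**Figure D5:**
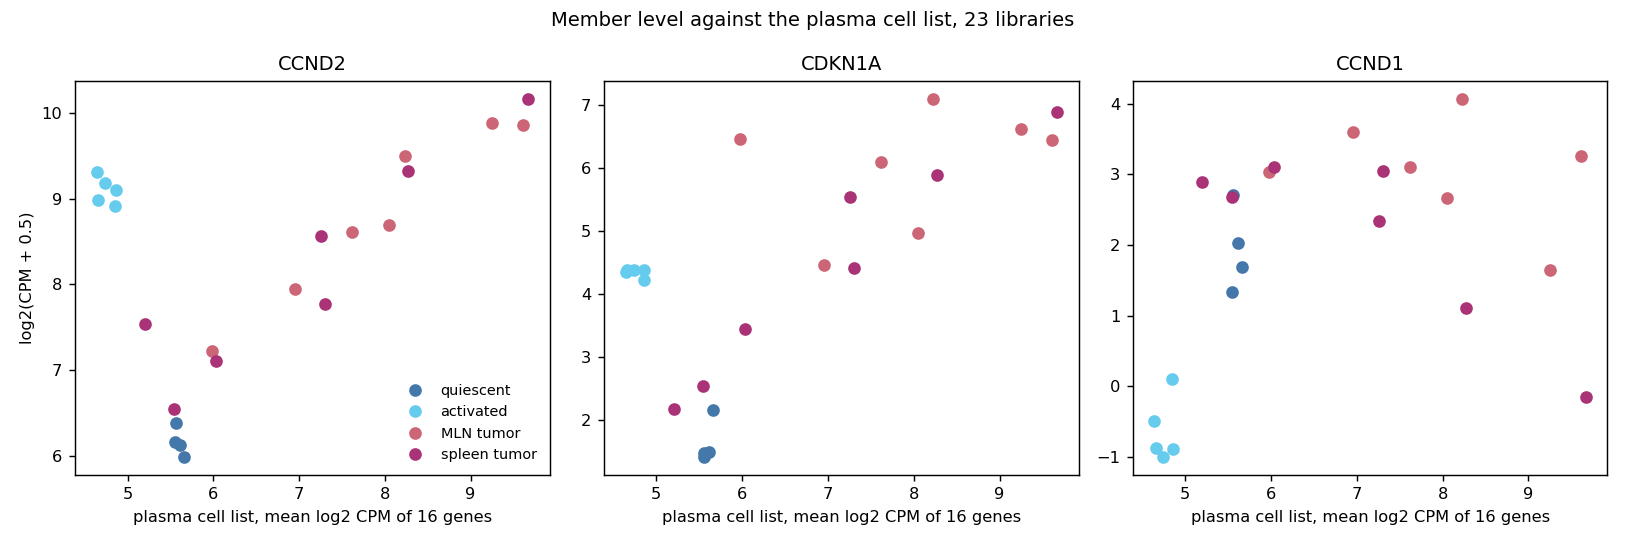
Level of CCND2, CDKN1A and CCND1, as log2(CPM + 0.5), against the mean log2 CPM of 16 plasma cell genes in each of the 23 libraries, colored by group. CCND2 climbs with the plasma cell list through the tumors while the activated cells sit apart at a high CCND2 level, and the CDKN1A points of spleen tumors lie closer to a line than those of MLN tumors.

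Genes whose log2 levels were most alike to a member over the 23 libraries are given as a description, since all points share the 4 groups and their depth. CCND2 ran with ARID3A (r = 0.957), a B lineage transcription factor, and ALPL (0.956), an alkaline phosphatase. CDK4 ran with SLC25A5 (0.970), a mitochondrial ADP/ATP carrier, and UNG (0.969), the uracil glycosylase. CDKN1A ran with BCL2L1 (0.941), which encodes the survival protein BCL-XL, and RASIP1 (0.930). CDKN2C ran with CENPV (0.960) and SSBP4 (0.927), and CCND3 with DAAM1 (0.920). The other pairs were PARP14 (0.929) and GATC (0.915) for CDK6, ABHD13 (0.895) and CCNL2 (0.892) for CDKN1B, AGPAT5 (0.931) and UCK2 (0.917) for CDKN2B, and SERPINB1 (0.923) and SPNS3 (0.912) for CDKN2D.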

How the data were processed

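Gene-level estimated counts were deposited by the authors in a table whose name speaks of TPM; the values' library totals and decimals show the unit. Per the submitters' processing notes, Trim Galore 0.4.0, DESeq2 and GRCm39 were used; the sources used here name no quantifier. Identical entries were joined, which left 15881 profiles, and values were rounded and tested with edgeR 4.0.16 (quasi-likelihood, TMM, 2-sided) in R 4.3.3 on the 11637 genes at 1 CPM or more in at least 4 libraries, with Benjamini-Hochberg adjustment over all of them. For a listed gene with several profiles the one of highest mean was used, as for CKS1B, which had 2. SE is the log2 difference divided by the square root of F. The 8 tumor mice (counts of a mouse's tumors summed), 4 quiescent and 5 activated libraries entered 1 fit; the comparison of MLN with spleen tumors used the 14 tumor libraries. CPM of single libraries and of summed mice were scaled in separate sets and differ slightly.

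Equal numbers mark tumors of 1 mouse, per the design text; deviations of paired tumors from their site means correlated at -0.08, -0.32, 0.36, -0.16, -0.44 and 0.59. Alternatives used DESeq2 1.42.0 and limma 3.58.1 (pseudocounts 0.5 and 5); scripts were tested on simulated data. All members were named, with the 3 largest called changes of each pathway list per comparison with control B cells, MYC, RB1, CCNE1, MKI67 and the 2 genes most alike to each member; CDKN1C, outside this rule, was added after its values were seen. Some genes of this rule and 1 gene list are not reported here. Members and lists were chosen with earlier results of these data known. Lengths are from a GENCODE mouse annotation and promoters from RefSeq, both of GRCm38, not the files' build.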

Additional observations from a re-analysis of the deposited data

Results flagged for a closer look

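Among 40 sets of values (10 genes in 4 groups), 4 held a highest or lowest library whose gap to the next, divided by the range of its group, exceeded Dixon's critical value; by the level of that test, chance flags about 1 in 20 groups. CDK6 in activated library 3 was 85.1 CPM, with the next library at 63.8. CDKN1A in quiescent library 2 was 4 CPM, with the next at 2.34, and in activated library 4 it was 18.3 CPM, with the next at 20. CDKN2B in the spleen tumor of mouse 1616 was 15.3 CPM, with the next spleen tumor at 4.01.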

How the results depend on the processing

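The number of members called stayed between 5 and 8 for tumors against quiescent cells, between 5 and 7 against activated cells, between 6 and 10 for activated against quiescent cells and at 0 between tumor sites, over all alternatives run. CDKN1A in tumors against activated cells turned to -0.18 (adjusted p = 0.83) with the Y-linked level as a covariate; the cause was not tested. Of the relations with list scores, 2 passed over the 8 mice, 1 within MLN tumors, 4 within spleen tumors, and between 0 and 3 with a mouse left out; the splits by site, by Y-linked level and by immunoglobulin share were chosen after seeing the data. The mouse as a replicate block over 6 pairs also called 0 members. Control numbers 1 to 4 share only a number (correlations of -0.04, 0, 0 and 0.04); with them as a replicate block 10 members passed between activated and quiescent cells, CCND3, CDK6 and CDKN2C added, as they did with only the 2 groups in the fit. Calls over all 11637 genes rose as well, from 6924 in the main fit to 8426 with the block and 8741 with only the 2 groups.

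Quantile normalization moved the share of higher calls over all genes from 53.6% to 39.8% against quiescent cells and from 57.2% to 38% against activated cells, with the median log2 difference going from 0.075 to -0.114 and from 0.087 to -0.123. Without a low-count filter the medians were 0.34 and 0.298. With a filter of 5 CPM CDKN2B was not tested. With the Y-linked covariate CCND2, CDKN1A and CDKN2B were raised by 4.41, 4.90 and 4.59 on activation and CDKN2D fell by 2.03. Y-linked levels hardly varied within either control group, so the slope of this covariate came mainly from the tumor mice. These values therefore cannot separate activation from Y-linked expression. Low counts limit CCND1 and CDKN2B, whose log2 differences shrink as the pseudocount grows: 5 in limma gave 1.25 for CCND1 against activated cells and 0.58 for CDKN2B against quiescent cells. The fit on only the compared groups is the reported one for MLN against spleen tumors.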
